A study of Brassica napus with 30 samples.

Results

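Along chromosomes A01 and A06 of oilseed rape (Brassica napus), a stretch of neighbouring gene models on each chromosome was described in dry and imbibed seeds. The A01 block held 120 gene models and the A06 block 185, together 305 of the 57945 gene models tested, or 0.526%, and of the 100919 in the table. A gene model could be a member if it reached 0.531 CPM (counts scaled to a common library size) in 3 or more of the 30 libraries. Such models were put in the order of their IDs within the chromosome, which carry the chromosome and an order along it. The 1576th to 1695th on A01 and the 1339th to 1523rd on A06 were taken. Both stretches had been selected on the measured log2 fold changes of their gene models from dry to imbibed seeds, so every difference between conditions given for members below is a description, without a test.

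Dry seeds hold RNA stored during maturation, and much of it is broken down after water uptake, while new transcription starts. Neighbouring plant genes are mostly transcribed each from a promoter of its own. Oilseed rape is an allotetraploid with an A and a C subgenome, so that many of its genes have a close copy, a homoeologue, on a chromosome of the other subgenome. None of the IDs in the table matched the RefSeq gene table, which is of a different assembly, so 0 members carry a gene name, and they are given by ID with no function.

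RNA of seeds of the genotypes JY1605 and JY1621 was sequenced in 5 conditions, with 3 libraries for each of the 10 groups and 100 seeds behind each RNA sample. The conditions were dry seeds, seeds after 8 h at 8 °C or 25 °C, and seeds after 36 h at 8 °C or 25 °C. The zeitgeber time of sampling was 0 for dry seeds, 8 for seeds of 8 h and 12 for seeds of 36 h, so a difference from dry seeds, or between 8 h and 36 h, is also one between times of day. The sources used here do not state how the genotypes differ beyond their names, nor whether each replicate had a seed lot of its own, so the tests measure the spread between these libraries.

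The libraries held between 14250480 and 78251632 counts in all, and the next deepest held 35172867. The deepest was replicate 1 of JY1621 after 36 h at 25 °C, and replicates 2 and 3 of that group held 17446793 and 19800695. Levels are CPM scaled by TMM factors, which correct for differences in composition between libraries, and they are not divided by gene length. A gene model was called when its log2 fold change was at least 1 in size and its adjusted p, from edgeR's quasi-likelihood test over all models tested, was under 0.05. In whole seeds, fewer cells of a kind and less RNA per cell cannot be told apart. How reads matching several copies were counted, and whether strand was used, is not known, so the count of a member may hold reads of a homoeologue, another close copy or an overlapping gene.

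The blocks differed in how densely they were filled. On A01 the members ran from BnaA01G0237000ZS to BnaA01G0255500ZS, and 120 of the 186 IDs in that span passed the count filter, 64.5% against 61.7% on the rest of the chromosome. On A06 they ran from BnaA06G0204900ZS to BnaA06G0250000ZS, and 185 of 452 IDs passed, 40.9% against 66.3% elsewhere on A06. Of the 267 models on A06 that failed, 157 had no count in any library, and on A01 37 of 66 had none. The blocks made up 4.52% of the tested models of A01 and 6.40% of those of A06.

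Most members were not at the edge of detection in dry seeds. On A01, 110 of 120 members exceeded the CPM threshold in all 6 dry libraries, and 69 did in all 30 libraries. On A06, 146 of 185 did in the dry libraries and 44 in all 30. Of the others, 6 members on A01 and 23 on A06 passed through imbibed libraries alone, and 5 on A06 through dry libraries alone. Late levels in JY1605 were low. After 36 h at 25 °C, 76 members on A01 and 154 on A06 averaged under 1 CPM, against 14244 of all 57945 tested models. The medians were 0.79 and 0.22 CPM there. In 1 group or more, 4 members on A01 and 15 on A06 had under 4 counts over its 3 libraries.

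Summed over its members, the A01 block stood at 1406, 1555 and 1538 CPM in the 3 dry JY1605 libraries and at 157, 180 and 158 CPM after 36 h at 25 °C. In dry JY1621 seeds it stood at 1494, 1378 and 1443 CPM, and after 36 h at 25 °C at 636, 674 and 688 CPM. Both genotypes had lower sums after 36 h in the warmth, without overlap, and JY1605 was at about the same level as JY1621 before imbibition but far below it afterwards. The mean in dry seeds was 9.10 times that after 36 h at 25 °C in JY1605 and 2.16 times in JY1621.

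The A06 block started close to the same sum, although it has more members. It stood at 1341, 1412 and 1377 CPM in dry JY1605 seeds and at 88.7, 106 and 92.8 CPM after 36 h at 25 °C. In JY1621 the dry libraries held 1543, 1383 and 1479 CPM and those after 36 h at 25 °C 623, 669 and 689 CPM. The dry mean was 14.4 times the later one in JY1605 and 2.22 times in JY1621, so the block ended lower than the A01 block in JY1605 and level with it in JY1621.

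**Figure D1:**
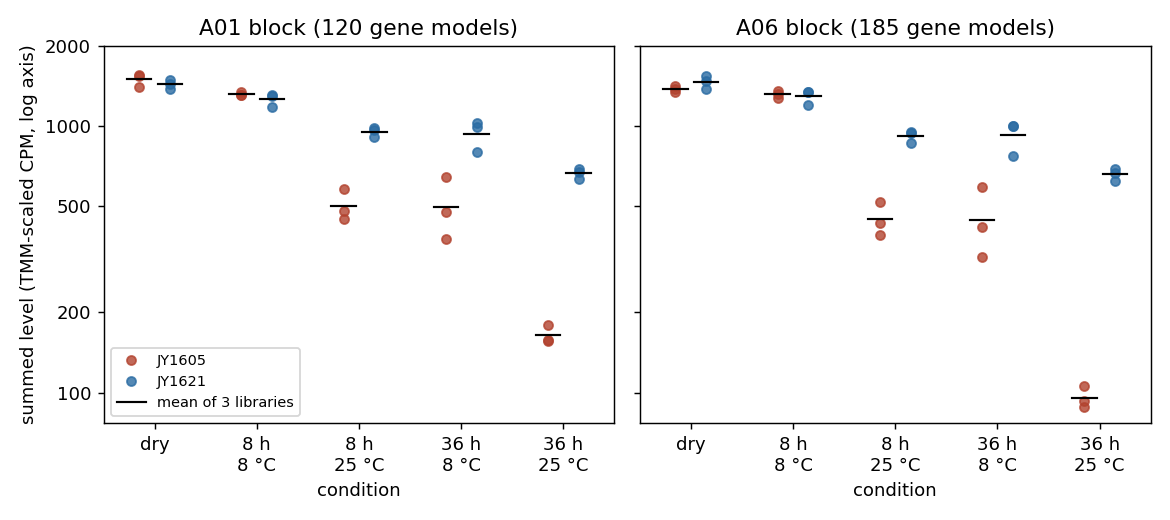
Summed level of each block (TMM-scaled CPM, log axis) by condition, with a point for each library and a bar at the mean of 3 libraries. In JY1605 (red) the A01 sums go from 1406 to 1555 CPM in dry seeds down to 157 to 180 CPM after 36 h at 25 °C, while in JY1621 (blue) they end at 636 to 688 CPM.

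The blocks stood at similar levels after a short time in the warmth and a long time in the cold. After 8 h at 25 °C the A01 block held 503 ± 68.1 CPM in JY1605 and after 36 h at 8 °C 499 ± 134 CPM (SD, n = 3). The A06 block held 447 ± 65.5 and 445 ± 136 CPM in the same conditions (SD, n = 3). In JY1621 the A01 block was at 955 ± 36.9 and 938 ± 123 CPM, and the A06 block at 918 ± 46.9 and 925 ± 134 CPM (SD, n = 3). In each of these 4 pairs the libraries of both conditions overlapped, and the means differed by less than the spread between replicates.

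After 8 h at 8 °C the sums were close to those of dry seeds. The A01 block held 1320 ± 17.3 CPM in JY1605, or 88.0% of its dry mean, and 1262 ± 69.1 CPM in JY1621, or 87.7% (SD, n = 3). The A06 block held 1316 ± 39.9 CPM in JY1605, or 95.6%, and 1295 ± 84.9 CPM in JY1621, or 88.2% (SD, n = 3). The dry and 8 h libraries overlapped for the A06 block in JY1605, with 1272 to 1351 CPM at 8 h against 1341 to 1412 CPM in dry seeds. In the other 3 cases every 8 h library lay below every dry one.

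Part of this course depends on the scale. Without the correction for composition, as a plain share of all counts, the blocks together held 0.215% ± 0.00916 in dry JY1605 seeds, and at 25 °C they held 0.113% ± 0.0161 at 8 h and 0.0307% ± 0.00243 at 36 h (SD, n = 3). In JY1621 the share was 0.233% ± 0.00984 dry, and at 25 °C it was 0.214% ± 0.00857 at 8 h and 0.150% ± 0.0106 at 36 h (SD, n = 3). After 8 h at 8 °C it was 98.4% of the dry share in JY1605 and 101% in JY1621, so the small drop at 8 h in the cold is gone in JY1621 on this scale. Scaling by library size alone would move every log2 change between dry seeds and 36 h at 25 °C up by 0.657 in JY1605 and by 0.496 in JY1621, and that between dry seeds and 8 h at 8 °C by 0.103 and 0.201. Relative to the median of all tested models, which is free of that choice, the change to 36 h at 25 °C was -4.19 on A01 and -4.20 on A06 in JY1605, and -1.30 and -1.54 in JY1621.

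The genotypes started alike and separated with warmth and time. The ratio of JY1621 to JY1605 for the A01 sum was 0.959 in dry seeds and 0.956 after 8 h at 8 °C. At 25 °C it was 1.90 at 8 h and 4.04 at 36 h, and after 36 h in the cold it was 1.88. For the A06 sum it was 1.07 in dry seeds and 0.984 and 2.05 at 8 h in the cold and the warmth, and then 2.08 and 6.89 at 36 h. The libraries of the genotypes overlapped in dry seeds for both blocks and after 8 h at 8 °C for the A06 block. For the A01 block after 8 h at 8 °C they did not overlap, with 1308 to 1340 CPM in JY1605 just above 1182 to 1304 CPM in JY1621. In the other 3 conditions every JY1621 library lay above every JY1605 library.

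The 2 blocks kept a nearly fixed proportion until the last time point. The A06 sum divided by the A01 sum was between 0.886 and 1.03 as a group mean in 9 of the 10 groups. In JY1605 after 36 h at 25 °C it was 0.581 ± 0.013 (SD, n = 3), with libraries from 0.566 to 0.589. Members of the A01 block called higher there, described further on, held 38.1 ± 1.67 CPM of the 165 ± 13.3 CPM of that block (SD, n = 3). Whether they account for the lower ratio was not tested.

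Member by member, JY1605 was almost uniform. After 36 h at 25 °C, 113 of 120 members on A01 and 179 of 185 on A06 were called lower than in dry seeds, where 24.8% of all tested models were called lower. The median log2 fold change was -3.83 on A01, with quartiles of -4.11 and -3.46, and -3.83 on A06, with quartiles of -4.17 and -3.37. Over all tested models the median was 0.36, and the quartiles, -1.06 and 1.95, were 3.01 apart, against 0.65 and 0.80 for the blocks. Called higher were 5 members on A01 and 1 on A06, against 36.6% of all tested models.

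In JY1621 the members were lower by less. After 36 h at 25 °C, 81 members on A01 and 125 on A06 were called lower, where 20% of all tested models were, and 5 and 17 were called higher, against 26.2%. The median was -1.12 on A01, with quartiles of -1.32 and -0.96, and -1.36 on A06, with quartiles of -1.74 and -0.94. These medians lie close to the log2 fold change of 1 that a call needs, and without it 267 members in all were called lower in JY1621, in place of 206, while scaling by library size alone gave 88.

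At the intermediate conditions, which share their dry libraries, the members' values are set side by side. In JY1605, 103 members on A01 and 159 on A06 were called lower after 8 h at 25 °C, against 20.8% of all tested models, with medians of -1.66 and -1.60. Higher were 4 and 1, against 24.7%. After 36 h at 8 °C, 105 and 155 were lower, against 23.7%, with medians of -1.62 on A01 and -1.61 on A06, and 4 and 1 higher, against 26.6%. In JY1621, 11 and 61 were called lower after 8 h at 25 °C, against 19.4%, with medians of -0.59 and -0.76, and 7 and 14 were called higher, against 22.2%. At 36 h and 8 °C it was 14 and 62 lower, against 22.1%, with medians of -0.60 and -0.80, and 6 and 15 higher, against 25.5%. In both conditions the lower calls in JY1621 were a larger share of the A06 members than of the A01 members, in step with the A06 medians. The A01 share was below that of all tested models and the A06 share above it.

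After 8 h at 8 °C few members were called in either genotype. Lower calls were still a larger share than over all tested models, except on A01 in JY1621. Higher calls were a smaller share in both blocks. In JY1605, 6 members on A01 and 4 on A06 were lower, against 0.423% of all tested models, and 1 and 3 were higher, against 2.98%. In JY1621, 0 on A01 and 4 on A06 were lower, against 0.48%, and 1 and 5 were higher, against 6.01%. By edgeR at an unadjusted p under 0.05, 16 of the A01 members were lower there, and by DESeq2 0. The medians were -0.21 and -0.02 in JY1605, and -0.20 and -0.18 in JY1621. In JY1621 the median of both blocks together was -0.19, and with library size scaling alone it turned to 0.00398.

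**Figure D2:**
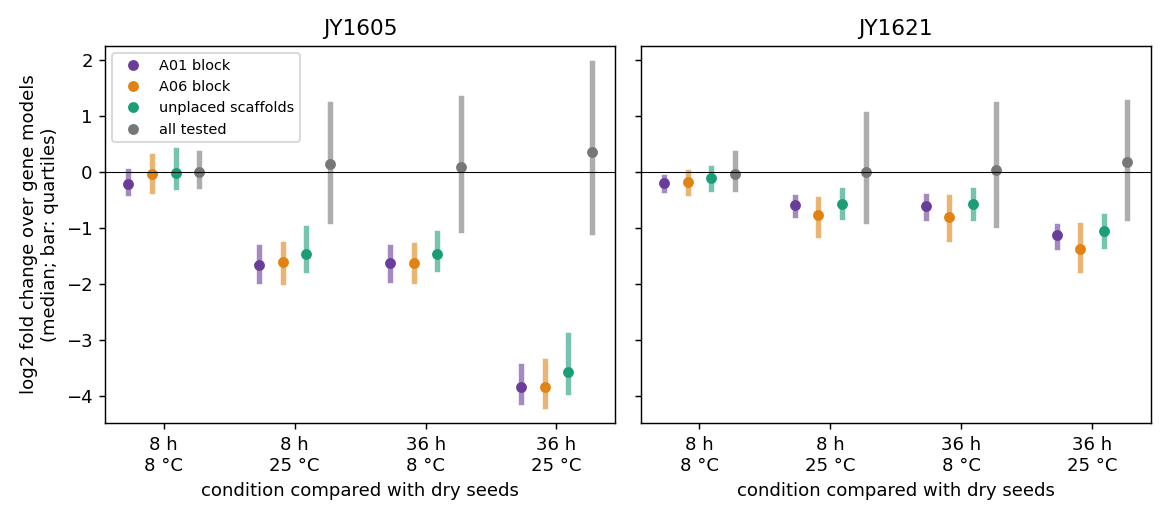
Median log2 fold change from dry seeds (points) with quartiles (bars) over the members of each block, the models on unplaced scaffolds and all tested models, for 4 imbibed conditions in each genotype. The blocks and the scaffold models go down together to -3.83 and -3.57 in JY1605 after 36 h at 25 °C, while the median of all tested models is at 0.36 there.

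In JY1605 members were higher in the cold than in the warmth. At 8 h, 105 members on A01 and 155 on A06 were called higher at 8 °C than at 25 °C, against 20% of all tested models, with medians of 1.55 and 1.62 (log2). At 36 h, 111 and 172 were, against 28.7%, with medians of 2.17 on A01 and 2.196 on A06. Lower in the cold were 5 and 1 at 8 h, against 21.3%, and 5 on A01 at 36 h, against 32.7%. In JY1621 the same difference was small, with 2 and 23 members called higher at 8 h, against 16.9%, and 3 and 6 at 36 h, against 14.3%. Lower in the cold were 3 and 5 JY1621 members at 8 h, against 16.4%. At 36 h edgeR called 0 of either block lower in JY1621, against 20.1% of all tested models, with 3 on A01 and 0 on A06 at an unadjusted p under 0.05 and 0 of either by DESeq2. The JY1621 medians were 0.40 and 0.53 at 8 h and 0.52 and 0.49 at 36 h.

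The difference between genotypes in this temperature effect was fitted as an interaction. At 8 h, 78 members on A01 and 79 on A06 had a lower effect in JY1621, against 5.91% of all tested models, with medians of -1.11 and -1.03 (log2). At 36 h, 105 and 151 did, against 20.8%, with medians of -1.57 and -1.73. An effect called higher in JY1621 was found for 2 and 1 members at 8 h, against 6.93%, and for 5 on A01 and 0 on A06 at 36 h, against 19.8%, where on A06 there were also 0 at an unadjusted p under 0.05 in edgeR and 0 by DESeq2. Of the 5 on A01, 4 were members called higher in JY1605 at 36 h and 25 °C than in dry seeds.

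Between genotypes within a condition, few members differed before the warmth. The share of A06 members higher in dry JY1621 seeds was only a little below that of all tested models. In dry seeds 3 members on A01 and 16 on A06 were called higher in JY1621, against 10.8% of all tested models, and 1 and 5 lower, against 9.52%. After 8 h at 8 °C it was 2 and 3 higher, against 12.1%, and 0 and 2 lower, against 8.89%, with 6 on A01 lower at an unadjusted p under 0.05 in edgeR and 0 by DESeq2. After 8 h at 25 °C 75 and 110 were higher, against 12.9%, and 2 and 1 lower, against 11.6%, with medians of 1.07 and 1.07 (log2). In seeds of 36 h at 8 °C 66 and 107 were higher, against 12.1%, with medians of 1.04 and 1.06. In seeds of 36 h at 25 °C 111 and 179 were higher, against 21.1%, with medians of 2.65 and 2.77, and 5 on A01 were lower, against 27%. The count after 36 h at 8 °C moved with single libraries: it was 173 members over both blocks, 78 when replicate 3 of JY1605 was left out and 231 when replicate 2 of JY1605 was left out.

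Along the chromosome the medians of JY1605 varied little within a block. In JY1605 after 36 h at 25 °C the median log2 change over 5 successive stretches of the A01 block ran from -3.99 to -3.58, and over 5 of the A06 block from -3.91 to -3.73. In JY1621 they ran from -1.20 to -1.002 on A01 and from -1.58 to -0.94 on A06. The longest unbroken run of members called lower in JY1605 was 43 on A01 and 75 on A06, and in JY1621 9 and 20. Over stretches of the same number of models just outside the blocks, the JY1605 medians were 0.42 before and 0.15 after the A01 block, and 0.45 before and 0.29 after the A06 block.

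**Figure D3:**
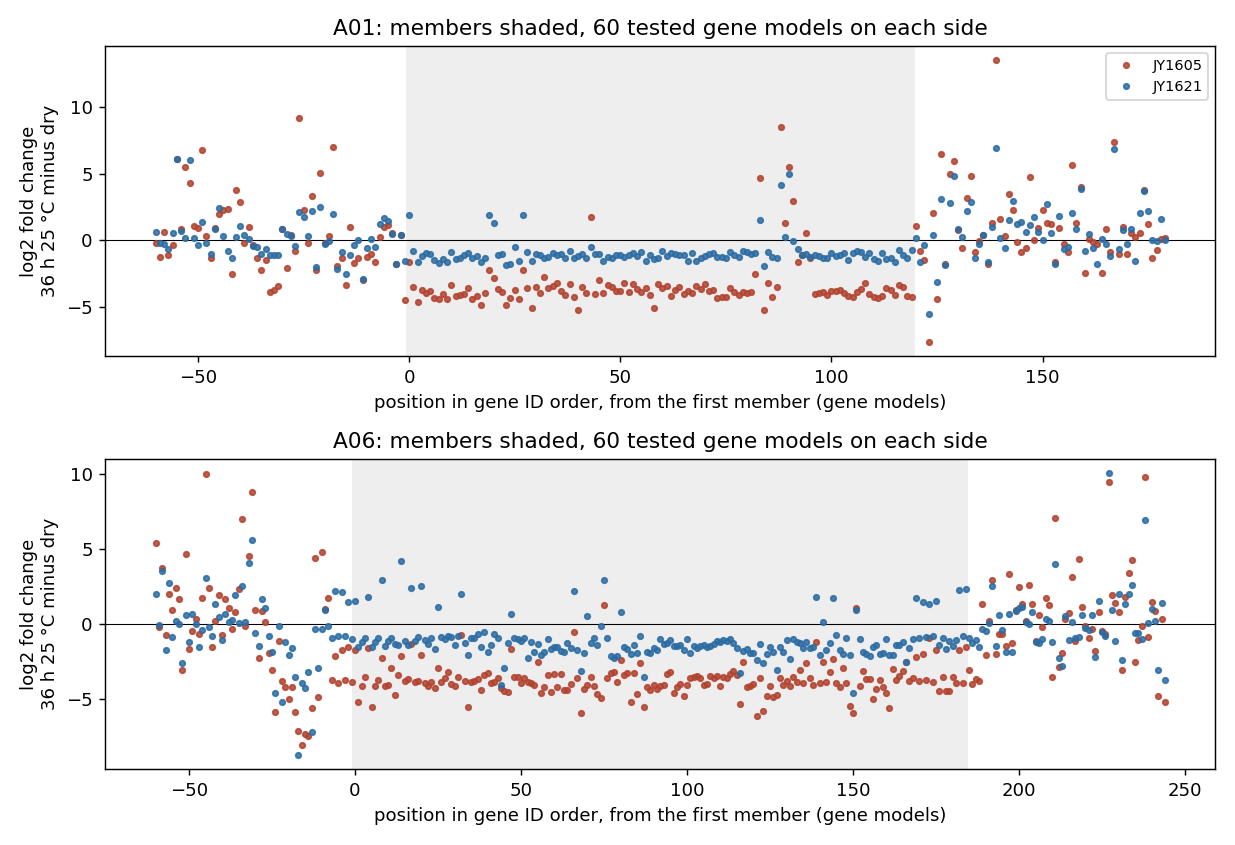
Log2 fold change (36 h at 25 °C against dry seeds) for each member (shaded) and for 60 tested models on either side, in gene ID order. Members form a band with a median of -3.83 in JY1605 (red) and a shallower one with medians of -1.12 on A01 and -1.36 on A06 in JY1621 (blue), and the spread of values is wide outside both blocks.

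The values just inside and outside the limits show that the rule did not cut at the same kind of step everywhere. Just before the A01 block, BnaA01G0236900ZS had a level of 2.43 ± 2.41 CPM in dry JY1605 seeds and 0.0983 ± 0.0594 CPM after 36 h at 25 °C (SD, n = 3), a log2 change of -4.50, although it is outside. The first member, BnaA01G0237000ZS, was at 0.869, 1.46 and 0.863 CPM in dry JY1605 seeds and at 0.240, 0.430 and 0.326 CPM after 36 h at 25 °C. In JY1621 the same model was at 1.37, 0.927 and 0.799 CPM dry and at 4.29, 3.01 and 3.82 CPM after 36 h at 25 °C, so it was lower in one genotype and higher in the other. In JY1621 it was highest after 8 h, at 10.3 ± 0.527 CPM at 8 °C and 10.3 ± 2.95 CPM at 25 °C (SD, n = 3), a course unlike that of the block.

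The last A01 member, BnaA01G0255500ZS, went from 16.9 ± 6.94 to 0.861 ± 0.174 CPM in JY1605 and from 9.42 ± 1.46 to 5.82 ± 1.43 CPM in JY1621 (SD, n = 3). Just outside, BnaA01G0255800ZS went from 0.697 ± 0.237 to 1.52 ± 0.319 CPM in JY1605 (SD, n = 3). The step from -4.27 to 1.11 (log2) at this end was the only one of the 4 limits at which the direction in JY1605 changed between the last model inside and the first outside.

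On A06 the models directly outside the block were lower in JY1605, as most members were, while the models further out were mixed. BnaA06G0204800ZS, just before the block, was at 52.4, 62.6 and 77.5 CPM in dry JY1605 seeds and at 4.01, 4.30 and 4.46 CPM after 36 h at 25 °C, a log2 change of -3.91. Of the 10 models before the block, 7 were called lower and 3 higher in JY1605, and of the 10 after it, 6 were called lower and 2 higher. Over all tested models 24.8% were called lower and 36.6% higher. BnaA06G0250100ZS, just after the block, changed by -3.10 in JY1605 and by -0.93 in JY1621. The A06 limits therefore left out some models with the same course, and the counts of members are not counts of all such models in the region.

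The first and last A06 members were themselves exceptions in JY1621. BnaA06G0204900ZS was at 0.720 ± 0.243 CPM in dry JY1605 seeds and 0.200 ± 0.089 CPM after 36 h at 25 °C, and in JY1621 at 0.537 ± 0.202 and 1.64 ± 0.22 CPM (SD, n = 3). BnaA06G0250000ZS went from 0.714 ± 0.156 to 0.234 ± 0.0389 CPM in JY1605 and from 0.250 ± 0.0485 to 1.24 ± 0.471 CPM in JY1621 (SD, n = 3). Both have few counts, between 11 and 26 over the 3 dry libraries of a genotype.

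Among members, those with the most counts in dry seeds showed the course most plainly. BnaA06G0209000ZS was at 69.1, 78.9 and 82.0 CPM in dry JY1605 seeds and at 88.0, 104 and 99.6 CPM after 8 h at 8 °C, a difference that was not called. It was at 25.3, 34.9 and 28.0 CPM after 8 h at 25 °C, at 25.6, 32.0 and 16.9 CPM after 36 h at 8 °C and at 5.11, 5.97 and 5.62 CPM after 36 h at 25 °C. The dry JY1621 libraries held 87.8, 93.1 and 83.2 CPM of it and those of 36 h at 25 °C 31.7, 41.8 and 39.2 CPM. The log2 change was -3.77 ± 0.19 in JY1605 and -1.24 ± 0.17 in JY1621 (SE), with no overlap between dry and late libraries in either genotype.

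The A01 member with the most dry counts, BnaA01G0253600ZS, was at 32.8, 46.6 and 45.5 CPM in dry JY1605 seeds and at 2.13, 2.66 and 1.78 CPM after 36 h at 25 °C. In JY1621 it went from 36.2, 34.4 and 30.6 CPM to 12.2, 13.5 and 11.4 CPM. The log2 change was -4.22 ± 0.27 in JY1605 and -1.45 ± 0.23 in JY1621 (SE). Its late libraries lay below all dry ones in both genotypes.

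The most negative changes, among members with at least 1 CPM in dry JY1605 seeds, were -5.23 ± 0.22 for BnaA01G0241600ZS and -5.96 ± 0.75 for BnaA06G0239300ZS (SE). BnaA01G0241600ZS went from 11.4, 14.0 and 13.5 CPM to 0.309, 0.405 and 0.290 CPM in JY1605, and from 7.85, 6.25 and 6.18 CPM to 2.88, 3.06 and 3.15 CPM in JY1621. BnaA06G0239300ZS had 60 counts over the dry JY1605 libraries and 2 over those of 36 h at 25 °C, so the late level was 0.0128 of the dry one (95% interval 0.00151 to 0.0481, for counting error only). It differed from most members in a large negative change in JY1621 as well, of -4.58 ± 0.60 (SE). Its JY1621 levels were 2.03 ± 0.279 CPM dry and 0.118 ± 0.0881 CPM late (SD, n = 3).

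In both genotypes together, 204 members were called lower after 36 h at 25 °C, 80 on A01 and 124 on A06, where 14.6% of all tested models were. Another 30 on A01 and 42 on A06 were lower in JY1605 and not called in JY1621, against 9.5%. The rule used these contrasts, so nothing is read from the shares. The 204 summed to 1941 ± 78.5 CPM dry and 136 ± 13.5 CPM late in JY1605, and to 2021 ± 111 and 808 ± 38.0 CPM in JY1621 (SD, n = 3). Of the 204, 199 were also called lower in JY1605 after 8 h at 25 °C and 71 in JY1621, against 73.2% and 59.8% of all tested models lower in both genotypes.

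**Figure D4:**
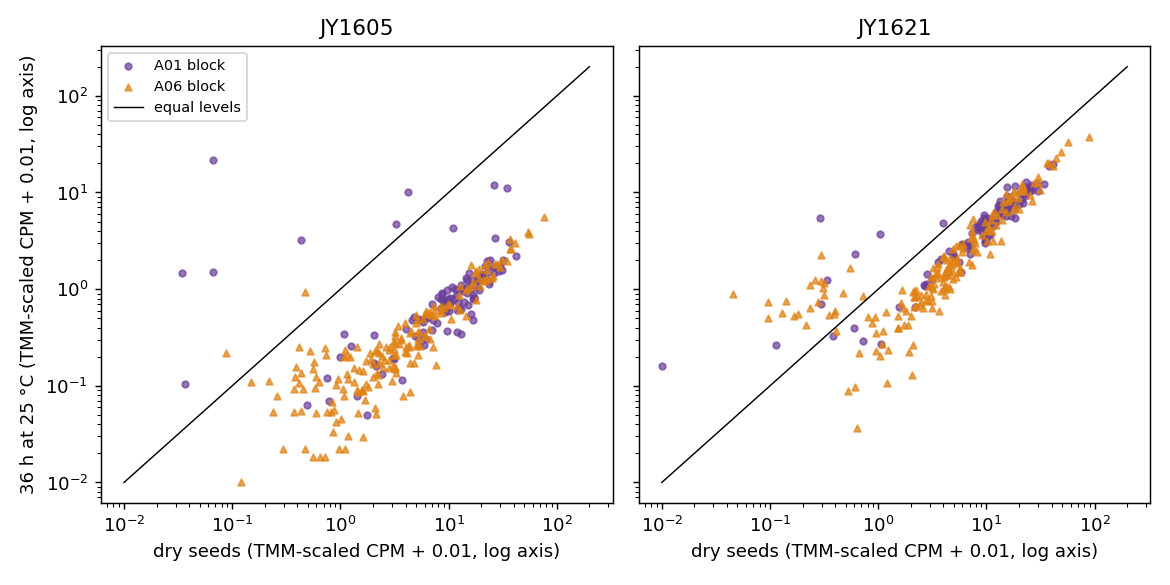
Mean level of each member after 36 h at 25 °C against that in dry seeds (TMM-scaled CPM + 0.01, log axes), with a line at equal levels. Most members follow a band below the line, further below it in JY1605 than in JY1621, and those above the line are mostly under 1 CPM in dry seeds.

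A group of 16 members, 3 on A01 and 13 on A06, was called lower in JY1605 and higher in JY1621, as were 0.699% of all tested models. Their summed level was 9.59 to 11.9 CPM in dry JY1605 seeds and 1.92 to 3.36 CPM after 36 h at 25 °C, and in JY1621 4.40 to 5.33 CPM and 16.7 to 22.5 CPM. The libraries did not overlap in either genotype, but the 16 were picked for their calls in this comparison, so this is no separate support. In the early conditions the mean sum was above that of dry seeds in both genotypes, with overlap in JY1605 in the warmth: after 8 h at 8 °C the sum was 14.0 ± 0.972 CPM in JY1605 and 20.4 ± 1.03 CPM in JY1621, and after 8 h at 25 °C 13.4 ± 2.16 and 26.6 ± 3.21 CPM (SD, n = 3). Of the 12.2 CPM of the 3 A01 members in JY1621 after 8 h at 8 °C, BnaA01G0237000ZS held 10.3 CPM.

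These 16 did not form a stretch of their own. On A06 they stood at positions 1, 5, 9, 15, 18, 21, 140, 145, 170, 172, 176, 183 and 185 of the 185, none next to another. Of the 13, 10 had at least 1 direct neighbour in the block called lower in JY1621, and 3 had both. On A01 they stood at positions 1, 20 and 28. Their median was 0.559 CPM in dry JY1605 seeds, against 5.42 CPM for the members lower in both genotypes. The count filter shaped this difference too, so nothing is read from it. Of 17 A06 members under 1 CPM in dry seeds and called higher in JY1621, 15 passed through imbibed libraries alone.

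The 5 A01 members called higher in JY1605 lay close together, at positions 84 and 89 to 92 of the block. Together they were at 4.22 to 5.56 CPM in dry JY1605 seeds and at 36.5 to 39.9 CPM after 36 h at 25 °C, and in JY1621 at 3.73 to 5.43 CPM and 10.2 to 11.6 CPM. The 5 were picked for their call in JY1605, and in JY1621 2 of them were called higher and 3 were not called. BnaA01G0250300ZS was at 0, 0.0728 and 0.0959 CPM in dry JY1605 seeds and at 21.9, 20.5 and 23.0 CPM after 36 h at 25 °C. With 2 dry counts against 2086 the ratio was 399, with a 95% interval of 110 to 3298 that covers counting error only. In JY1621 it was at 0.278 ± 0.0824 CPM dry and 5.38 ± 0.838 CPM late (SD, n = 3), and 5.40 ± 0.458 CPM after 36 h at 8 °C.

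On A06 a single member was called higher in JY1605, at position 152, with 0.462 ± 0.22 CPM dry and 0.928 ± 0.513 CPM late (SD, n = 3). The member with the most positive change, BnaA06G0226400ZS, was not called in JY1605, with 3 dry counts, 20 late ones and a change of 1.30 ± 0.91 (SE). In JY1621 it changed by 2.94 ± 0.70 (SE), from 0.0863 ± 0.0782 to 0.719 ± 0.0638 CPM (SD, n = 3).

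The members were also sorted by their dry level. On A01, all 20 members averaging 20 CPM or more in the dry libraries and all 74 between 5 and 20 CPM were called lower in JY1605. So were 15 of 17 between 1 and 5 CPM and 4 of 9 under 1 CPM. On A06, all 21, 51 and 77 members in the first 3 of these classes were lower in JY1605, and 30 of 36 under 1 CPM. Over all tested models, whatever their dry level, 24.8% were called lower in JY1605. The members were selected on such changes and no share for models of like dry level is given, so nothing is read from these counts. In JY1621 17 of those 36 were called higher, against 26.2% of all tested models, and 10 lower, against 20%. Of the other A06 classes 0 members were called higher. The count filter shaped this lowest class: 23 of its 36 A06 members passed through imbibed libraries alone, among them 15 of the 17 called higher in JY1621, so nothing is read from that count.

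The order of the members by level was kept on A06 and less so on A01. The 10 A06 members with the most dry counts in JY1605 held 31.5% of the block's sum dry and the 10 highest after 36 h at 25 °C held 31.8% of it then, with 9 members in both. On A01 the 10 highest held 21.1% dry and 46.1% late, with 4 in both. In JY1621 9 of the 10 stayed among the highest on A06 and 6 on A01. Across members, log2 levels in dry seeds and after 36 h at 25 °C in JY1605 correlated at 0.368 on A01 and 0.878 on A06. Between the genotypes, log2 dry levels correlated at 0.953 on A01 and 0.951 on A06. These are Pearson values with 0.1 CPM added, over 120 and 185 members, which are not independent replicates.

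Libraries of one group deviated from their group mean in both blocks alike. Over the 30 libraries, the log2 deviations of the A01 sum and the A06 sum correlated at 0.989 (Pearson, a description), and at 0.975 over 27 libraries without JY1605 at 36 h and 8 °C. The points share their library and its scaling factor. Those 3 JY1605 libraries spread most, with 476, 643 and 378 CPM on A01 and 420, 592 and 324 CPM on A06 for replicates 1, 2 and 3. The deviations of both blocks together correlated with total count at 0.0718.

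**Figure D5:**
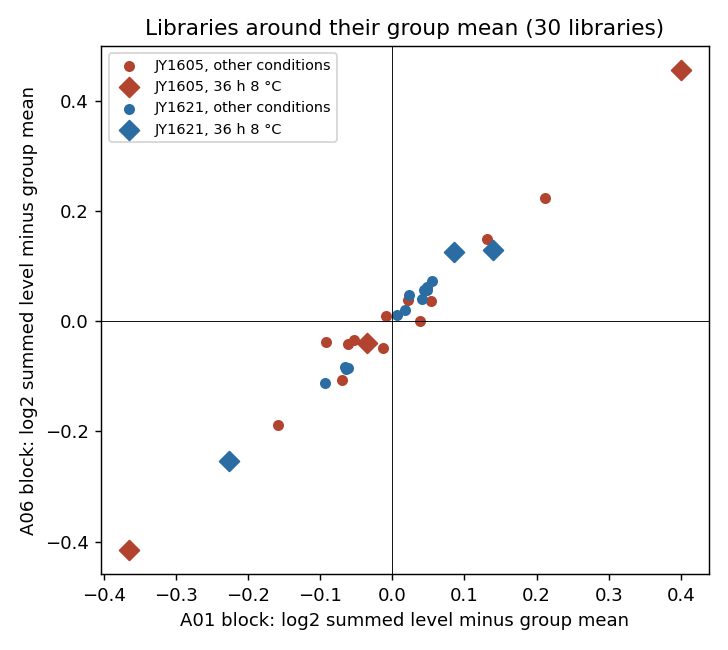
Log2 summed level of the A06 block against that of the A01 block, each as a deviation from the mean of the library's group, for 30 libraries. Points lie along a line from the lowest to the highest library, both of JY1605 after 36 h at 8 °C (red diamonds).

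Gene models on unplaced scaffolds, those that the assembly does not put on a chromosome, showed a similar course. Over the 1203 tested, the median log2 change to 36 h at 25 °C was -3.57 in JY1605 and -1.05 in JY1621, and 992 and 634 were called lower, against 24.8% and 20% of all tested models. Their sum was 6384 ± 140 CPM dry and 891 ± 66.6 CPM late in JY1605, and 6326 ± 304 and 3297 ± 137 CPM in JY1621 (SD, n = 3). Within groups, their deviations and those of the blocks correlated at 0.977 over 30 libraries, and at 0.944 over 27 without JY1605 at 36 h and 8 °C.

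Gene models within the ID spans that failed the count filter were no candidates for membership, and their summed level was tested. Failed models outside the spans were not summed, so whether a difference is particular to the spans was not tested. On A06, the 267 summed to 5.27 to 6.40 CPM in dry JY1605 seeds and to 0.686 to 1.34 CPM after 36 h at 25 °C, and in JY1621 to 5.48 to 8.08 CPM and 3.66 to 5.07 CPM. The mean log2 difference over both genotypes was -1.73 after 36 h at 25 °C (exact two-sided permutation test within genotypes, adjusted p = 0.02 over 12 tests), with -2.76 in JY1605 and -0.70 in JY1621. The sums were lower in all 6 imbibed libraries than in every dry library of the same genotype. After 36 h at 8 °C the difference was -1.03 and after 8 h at 25 °C -0.70 (same exact test, adjusted p = 0.02 and 0.045), and after 8 h at 8 °C it was -0.13 (adjusted p = 0.516, exact test). Between temperatures, 8 °C minus 25 °C, it was 0.57 at 8 h and 0.69 at 36 h. Neither passed (same exact test, adjusted p = 0.09 and 0.163). The smallest p this design allows is 0.005. Within groups, deviations of the A06 sum of failed models correlated less with those of the blocks than the blocks did with each other. The values were 0.574 for the A01 block and 0.601 for the A06 block over 30 libraries. Without JY1605 at 36 h and 8 °C they were 0.243 and 0.290 over 27 libraries (Pearson, a description).

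The A06 differences from dry seeds that had passed were smaller on another scale, and the calls were lost without the thinnest models. With plain library size they were -1.15 (adjusted p = 0.12, exact test), -0.51 (0.18) and -0.11 (0.588), and with only models of at least 15 counts in all they were -1.75 (adjusted p = 0.06, exact test), -0.96 (0.06) and -0.60 (0.12). The library sums rest on 20 to 314 counts. On A01 the 66 models held 1 to 46 counts per library, and 1 of 6 differences passed: 36 h at 8 °C against 25 °C, at 0.89 (exact test, adjusted p = 0.02). It did not pass with plain library size, at 0.84 (adjusted p = 0.06, exact test). For A01 after 36 h at 25 °C against dry seeds the difference was -1.16 (adjusted p = 0.09, exact test), which is not distinguishable from the spread between libraries at this depth.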

How the data were processed

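Total RNA of 100 seeds per sample was sequenced in 30 libraries, 3 for each of 10 groups. The authors deposited raw counts, whole numbers per gene model and library, in 1 table of 100919 models. The tools named are DESeq2 1.42.0, featureCounts 2.0.6 and HISAT2 2.2.1, per the submitters' processing notes. Not given in the sources used here are their roles and parameters, the genome build, the strand setting and the treatment of reads with several matches.

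Models with at least 0.531 CPM, which is 10 counts at the median total, in 3 libraries and at least 15 counts in all were tested, 57945 in number. One edgeR 4.0.16 fit (R 4.3.3, TMM factors, robust quasi-likelihood test) covered all 30 libraries with a mean per group, and p-values were adjusted by Benjamini-Hochberg over all models tested in each of 19 comparisons. Calls needed an adjusted p under 0.05 and a log2 fold change of at least 1. In data simulated for JY1605 at 36 h and 25 °C against dry seeds with 6000 models, 98 of 100 models changed by 1.5 and 100 of 100 changed by 3 (log2) were called in the right direction, and 6 of 5800 others were called. The changed models averaged over 1 CPM, and all models had the same spread, without the composition differences of the real libraries. These rates therefore do not cover members at lower levels. Pairs of libraries of a group differed with a chi-square of 2.62 to 7.10 per degree of freedom, so no 2 libraries of a group agreed within sampling noise.

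The members, limits and lists were chosen with earlier results of these data known. Named for each block are the first and last member, the models just outside, the member with the highest dry mean CPM, the most negative change in JY1605 at 36 h and 25 °C among members with at least 1 CPM in dry seeds, and the most positive one. Seed marker genes were not looked up, because 0 IDs matched a name. Models that failed the filter were summed and tested by exact permutation of libraries within genotypes, over 400 splits. Groups share replicate numbers, but same-numbered libraries did not deviate together by the criterion used: 0 of 17 pairs of groups had every correlation over 0.1, and these ran from -0.131 to 0.181. The highest, 0.181 and 0.165, were those of replicates 2 and 3 between the genotypes at 36 h and 8 °C. There both block sums were highest in replicate 2 and lowest in replicate 3 in each genotype. Alternatives were DESeq2's test and size factors, library size scaling, no count filter, no fold minimum, fits of only the groups compared, a replicate block and leaving out each library.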

Additional observations from a re-analysis of the deposited data

Results flagged for a closer look

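The temperature effect (8 °C minus 25 °C, log2) differed between the genotypes by edgeR's interaction test for many members, which had been chosen with such differences known. At 8 h, 157 members had a lower effect in JY1621, against 5.91% of all tested models, and at 36 h 256, against 20.8%.

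Among the named members, the effect at 8 h in JY1621 minus that in JY1605 was -1.07 for BnaA01G0253600ZS, -1.61 for BnaA01G0241600ZS and -1.13 for BnaA06G0209000ZS. For BnaA06G0239300ZS it was 2.37, the opposite direction, from 14 to 54 counts per group at 25 °C and 20 to 29 at 8 °C.

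At 36 h it was -3.01 for BnaA01G0237000ZS, -1.29 for BnaA01G0255500ZS, -1.49 for BnaA01G0253600ZS and -2.50 for BnaA01G0241600ZS. On A06 it was -2.05 for BnaA06G0204900ZS, -1.34 for BnaA06G0250000ZS, -1.62 for BnaA06G0209000ZS and -3.16 for BnaA06G0239300ZS, which had 2 counts in JY1605 at 25 °C. BnaA01G0250300ZS was the other exception, at 2.43: in JY1605 it was at 4.15 ± 0.494 CPM at 8 °C and 21.8 ± 1.25 CPM at 25 °C, and in JY1621 at 5.40 ± 0.458 and 5.38 ± 0.838 CPM (SD, n = 3).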

How the results depend on the processing

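Counts of members called, over both blocks, stayed within 1.5 times the reported ones with DESeq2's Wald test, DESeq2 size factors in edgeR, a fit of only the groups compared, no count filter and a replicate block, in all 19 comparisons. The replicate block moved no count by over 1.5 times (JY1605 at 36 h and 25 °C lower than dry: 293 against 292). With library size scaling only, members lower than dry fell in number to 131 (from 262) and 167 (from 260) in JY1605 after 8 h at 25 °C and 36 h at 8 °C, and in JY1621 to 1 (from 4), 13 (from 72), 21 (from 76) and 88 (from 206) after 8 h at 8 °C, 8 h at 25 °C, 36 h at 8 °C and 36 h at 25 °C. Members higher at 8 °C than 25 °C after 8 h were then 148 (from 260) in JY1605 and 2 (from 25) in JY1621, those higher in JY1621 after 8 h at 8 °C 8 (from 5), and those with a lower temperature effect in JY1621 at 8 h 57 (from 157). The shift is by construction of the scaling. Without a fold minimum, lower than dry were 19 (from 10) in JY1605 after 8 h at 8 °C, and 19 (from 4), 217 (from 72) and 225 (from 76) in JY1621 after 8 h at 8 °C, 8 h at 25 °C and 36 h at 8 °C. Higher at 8 °C in JY1621 were then 149 at 8 h and 152 at 36 h (from 9), and higher in JY1621 51 (from 19) in dry seeds and 11 after 8 h at 8 °C.

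For models that failed the filter, plain library size gave 0.26 for A01 after 36 h at 8 °C and 0.0199 for A06 after 8 h at 8 °C, both against dry and both turned in sign, 0.84 for A01 at 36 h between temperatures, and -0.11, -0.51 and -1.15 for A06 after 8 h at 25 °C, 36 h at 8 °C and 36 h at 25 °C. Requiring 15 counts gave 0.48, -0.60, -0.96 and -1.75 for the last 4. None of those 4 passed in either setting, and the cause was not tested.

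Leaving out 1 library at a time gave these ranges. Members lower than dry after 8 h at 8 °C were 5 to 10 in JY1605 and 0 to 4 in JY1621. Members higher at 8 °C than 25 °C in JY1621 at 8 h were 5 to 42. Higher in JY1621 were 3 to 7 after 8 h at 8 °C and 78 to 231 after 36 h at 8 °C. For models that failed the filter, A01 ranged from -0.229 to 0.318 after 8 h at 25 °C, turning in sign, at -0.229 without JY1605 dry replicate 3, -0.0455 without JY1605 8 h 25 °C replicate 1 and -0.0380 without JY1621 dry replicate 1. It ranged from -1.45 to -0.696 after 36 h at 25 °C, where it passed without JY1605 dry replicate 3, and from 0.426 to 1.13 between temperatures at 36 h, where it did not pass without any 1 of the 3 JY1605 8 °C libraries. A06 ranged from -0.772 to -0.632 after 8 h at 25 °C, not passing without JY1621 dry replicate 1 or 3 or 8 h 25 °C replicate 2, and from 0.443 to 0.662 between temperatures at 8 h, passing without JY1621 8 °C replicate 2.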
